A study of Mus musculus with 6 samples.

Results

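Wnt2, 5 other genes for Wnt ligands (Wnt2b, Wnt4, Wnt5a, Wnt5b and Wnt11), 3 genes for secreted Frizzled-related proteins (Sfrp1, Sfrp2 and Sfrp5) and the Dickkopf family gene Dkk3 were followed in 6 mouse hearts on Affymetrix expression arrays. These 10 genes, of 18193 named on the array, were measured by 21 probe sets that name 1 of them alone, of 45037 probe sets in all. The hearts came from 3 mice labelled EphB4 Mutant and 3 labelled wild type, all of the strain given as C57B6. The sources used here state neither the kind of mutation nor the age of the mice, and the series title places the study in the forming ventricular wall. Ephb4 encodes a receptor tyrosine kinase of the endothelium that binds ephrin-B2. The sample descriptions open with the letters eM for mutant 3 and wild-type 3 and with eI for mutants 1 and 2 and wild-types 1 and 2; what the letters stand for is not stated. The genes were selected on earlier results of these data, Wnt2 by its measured differences between genotypes and between eM and eI hearts, so those of Wnt2 are given without a test.

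Wnt ligands are lipid-modified secreted glycoproteins that bind Frizzled receptors, with the co-receptors Lrp5 and Lrp6 in the branch that stabilises beta-catenin, or with Ror and other receptors in branches that steer cell polarity and movement. Secreted Frizzled-related proteins carry a Frizzled-like domain, bind Wnt ligands outside the cell and mostly hold signalling back. Wnt2 is known in the mouse embryo from the mesoderm at the venous pole of the heart and from lung mesenchyme, whereas Wnt5a and Wnt11 are known for their part in forming the outflow tract.

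Promoter sequence was taken from RefSeq (GRCm38.p6), which gave an entry for 7 of the 10 genes. It is shown for Wnt2, Sfrp2 and Sfrp5, the genes with an entry whose levels differed most among hearts. Each line gives the 250 bases before a transcription start, 5′ to 3′ on the gene's strand, from chr6:18030446-18030695 (minus strand), chr3:83766071-83766320 (plus strand) and chr19:42202253-42202502 (minus strand). The windows of Wnt2 and Sfrp2 lie inside the annotated spans of these genes (chr6:17985474-18032772 and chr3:83765750-83774314), since RefSeq also holds a start farther upstream, and that of Sfrp5 ends at the gene's start (chr19:42197971-42202252). Capitals mark matches to AGATAA or its core GATAA, the letters GATA factors bind, or to their reverse complements.
Wnt2: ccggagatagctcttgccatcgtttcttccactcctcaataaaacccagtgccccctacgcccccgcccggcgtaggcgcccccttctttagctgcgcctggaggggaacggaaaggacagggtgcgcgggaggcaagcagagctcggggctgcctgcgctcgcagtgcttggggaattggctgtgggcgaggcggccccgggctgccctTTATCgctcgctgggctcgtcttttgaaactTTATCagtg
Sfrp2: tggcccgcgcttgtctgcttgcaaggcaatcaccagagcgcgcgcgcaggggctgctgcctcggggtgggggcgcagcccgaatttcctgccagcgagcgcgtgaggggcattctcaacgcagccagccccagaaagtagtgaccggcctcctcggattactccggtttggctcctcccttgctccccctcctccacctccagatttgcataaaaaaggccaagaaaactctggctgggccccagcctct
Sfrp5: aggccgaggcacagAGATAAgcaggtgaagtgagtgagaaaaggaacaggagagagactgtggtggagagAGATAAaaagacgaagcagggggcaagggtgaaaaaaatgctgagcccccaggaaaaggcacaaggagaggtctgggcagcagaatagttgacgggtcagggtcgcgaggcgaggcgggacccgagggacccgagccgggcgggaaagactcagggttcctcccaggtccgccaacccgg
On both strands, AGATAA was found at 2 places in Sfrp5 and at 0 in Wnt2 and Sfrp2, and 9.99% of the 32817 promoters of this length held it. The shorter GATAA, which AGATAA contains and which was added after the sequences had been read, was found at 2 places in Wnt2 as TTATC, the nearer 9 to 5 bases before the start, and 22.6% of all promoters held it. A Tcf/Lef match (ATCAAAG) and a TATA box match (TATAAA), held by 3.21% and 12.4% of all promoters, were found in none of the 3 windows. A match is a string of letters and not evidence of binding.

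Values are log2 intensities, so a difference of 1 is a doubling, and levels are compared between hearts and never between genes. Array medians lay between 5.89 and 6.01. Probe sets with a mean below 5.38, the lowest 40%, were called dim and left untested. The ventricular muscle markers, 8 of 8 measured, averaged 12.61 to 12.78 across the 6 hearts, which were labelled as heart tissue. The eM hearts stood apart from the eI hearts across the array: mutant 3 and wild-type 3 lay apart from the others on the main axis of a principal component analysis, which carried 60.4% of the variance. The eM hearts also had a larger 3′ minus 5′ difference of the beta-actin control (0.51 to 0.77, against 0.28 to 0.41 in eI hearts), a measure of RNA or labelling quality. Xist, the RNA that silences an X chromosome in females, read 6.73, 11.75 and 6.78 in mutants 1, 2 and 3, against 11.51 to 12.33 in wild types, so sex was not balanced between the genotypes. The part of array quality and of sex in the results below was not tested beyond a fit with the Xist level as a covariate.

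Wnt2 was the ligand that varied most, and it was higher in eM than in eI hearts and higher in mutant than in wild-type hearts of the same letters. Its probe set, 1449425_at, read 6.71, 6.79 and 8.58 in mutants 1, 2 and 3, against 6.14, 6.06 and 7.54 in wild-types 1, 2 and 3. Both eM hearts lay above all 4 eI hearts. Within the eI hearts both mutants lay above both wild types, and within the eM pair the mutant was higher, but over all hearts the genotypes overlapped because wild-type 3 exceeded mutants 1 and 2. The mutant mean was 7.36 ± 1.06 and the wild-type mean 6.58 ± 0.83 (SD, n = 3 each), a difference of 0.78 ± 0.61 (SE), or 1.72-fold. That difference was 0.65 within eI and 1.04 within eM. With genotype adjusted, eM hearts exceeded eI hearts by 1.63 ± 0.12 (SE), or 3.11-fold. That difference was 1.83 among mutants and 1.44 among wild types. Among all 27022 tested probe sets, 8.21% were likewise higher in the mutant within both letters.

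**Figure D1:**
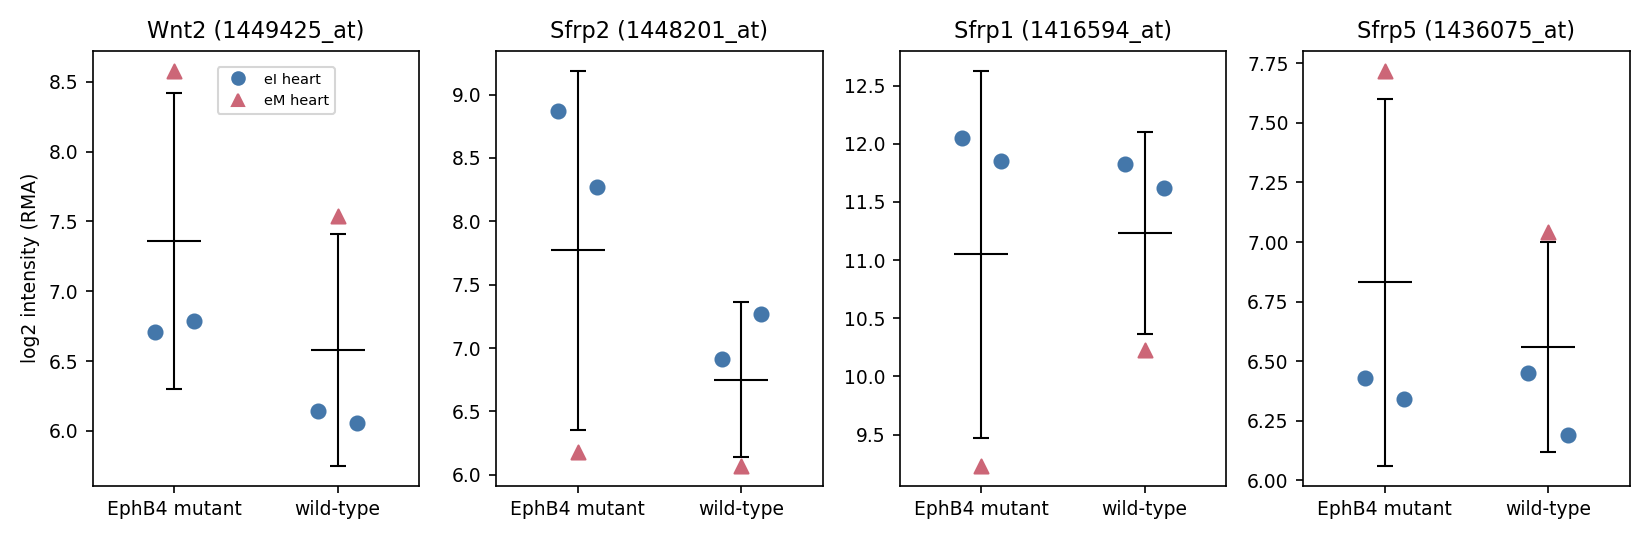
Log2 intensity of Wnt2, Sfrp2, Sfrp1 and Sfrp5 probe sets in each heart, EphB4 mutant left and wild-type right, with circles for eI and triangles for eM hearts; bars are the mean and SD of 3 hearts. For Wnt2 the eM hearts read 8.58 and 7.54 and lie on top within each genotype, whereas for Sfrp1 and Sfrp2 they lie lowest.

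Levels of RNA in a whole heart cannot tell more cells of a type from more RNA per cell, and the hearts could hold tissue from their surroundings. Of the markers of lung mesenchyme and foregut epithelium, where Wnt2 is also made, 5 were tested. By letters 0 of these 5 passed in limma, where 11.7% of all tested probe sets did, so so few genes say little. The mean over the 12 measured genes was 4.98 in mutant 3 and 4.97 in wild-type 3, against 5.10 to 5.24 in eI hearts. Of the 12, 7 were dim, among them Sox2, Tbx4, a factor of lung mesenchyme, and the secreted signals Shh and Fgf10. These dim genes enter the mean, and nothing is said of their single changes. Nkx2-1, the factor that marks lung and thyroid epithelium, read 5.42 in mutant 3 and 5.44 in wild-type 3, at the bottom of its range of 5.41 to 6.00. Venous pole markers (12 of 13 measured) averaged 6.64 and 6.90 in eM hearts, within and just above the 6.63 to 6.82 of eI hearts. That mean holds 4 dim genes. Of the 8 tested, 2 passed, both higher in eM hearts, where 6.75% of all tested probe sets passed as higher. They were Tbx5 (0.50, limma, adjusted p = 0.0289) and Tbx18 (0.69, adjusted p = 0.0317). Another 2, Aldh1a2 (-0.82) and Foxf1 (-0.26), lay lower in eM hearts without overlap and did not pass. Outflow tract and smooth muscle markers (10 of 10 measured) averaged 9.33 and 9.58 in eM hearts, above the 8.82 to 9.05 of eI hearts. Of the 10, 2 passed and were higher in eM hearts, a direction in which 6.75% of all tested probe sets passed. They were Tagln, an actin-binding protein of smooth muscle (1.19, limma, adjusted p = 0.0099), and Rgs5, a pericyte gene (1.21, adjusted p = 0.0143). The smooth muscle genes Myh11 (0.01) and Cnn1 (-0.04) and the factors Nkx2-6 (-0.04) and Hand2 (0.02) gave differences near 0. The part of these tissues in the Wnt2 levels was not tested.

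Wnt5a, a ligand mostly of the beta-catenin-independent branch, was higher in eM hearts at 2 of its 3 tested probe sets and was close between genotypes. Probe set 1448818_at read 6.53, 6.37 and 7.38 in mutants 1, 2 and 3, against 6.22, 6.71 and 7.52 in wild types. The eM hearts lay above all eI hearts there, by 0.99 ± 0.15 (SE; limma, adjusted p = 0.0146). At 1437673_at the eM hearts lay 0.37 ± 0.09 higher (adjusted p = 0.0429), with 8.20 and 8.24 against 7.81 to 7.89. The brightest probe set, 1436791_at, did not pass, with 0.11 ± 0.11 (limma, adjusted p = 0.549) and overlapping values. Mutant minus wild type was -0.05, -0.02 and -0.05 at 1436791_at, 1437673_at and 1448818_at. A further probe set, 1456976_at, was dim, at 4.37 to 4.43 in mutants and 4.03 to 4.82 in wild types.

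Wnt5b, the closest relative of Wnt5a, leaned the other way by letters. Probe set 1439373_x_at read 6.33, 6.46 and 5.46 in mutants 1, 2 and 3, against 6.22, 6.12 and 5.92 in wild types. The eM hearts were lowest at both probe sets without overlap, yet neither difference passed: it was -0.59 ± 0.16 (SE; limma, adjusted p = 0.0707) at 1439373_x_at and -0.30 ± 0.12 (adjusted p = 0.155) at 1422602_a_at. The eI mutants lay above the eI wild types, by 0.23 and 0.37 at these 2 probe sets, whereas in the eM pair the mutant was lower, by -0.46 and -0.04.

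Wnt4, Wnt11 and Wnt2b varied little. Wnt4, a ligand needed for kidney and gonad formation in the mouse, read 8.19 to 8.49 in mutants and 8.29 to 8.64 in wild types at 1450782_at. Mutant minus wild type was -0.13 ± 0.13 there and 0.09 ± 0.12 at 1441687_at (limma, adjusted p = 0.9999 for both). Wnt4 was slightly higher in both eM hearts at each probe set, by 0.26 ± 0.10 and 0.16 ± 0.10, and did not pass (limma, adjusted p = 0.133 and 0.336). Wnt11 read 8.92 to 9.03 in mutants and 8.69 to 9.15 in wild types, with a genotype difference of 0.03 (95% confidence interval -0.30 to 0.37) and an eM minus eI difference of 0.18 ± 0.13 (limma, adjusted p = 0.4). The only probe set of Wnt2b, a close relative of Wnt2, was dim, at 4.55 to 4.65 in mutants and 4.42 to 4.99 in wild types, so nothing is said of its changes.

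Sfrp1, which maps to chr8:23411383-23449632, was lower in eM hearts at 3 of its 5 probe sets. The brightest, 1416594_at, read 12.05, 11.85 and 9.23 in mutants 1, 2 and 3, against 11.83, 11.62 and 10.23 in wild types. The eM hearts lay far below the eI hearts, which spanned only 11.62 to 12.05. The difference was -2.11 ± 0.27 (SE), or 4.31-fold lower in eM hearts (limma, adjusted p = 0.00909). Probe sets 1428136_at and 1460187_at gave -1.30 ± 0.18 (adjusted p = 0.0108) and -1.72 ± 0.34 (limma, adjusted p = 0.0281). By genotype, 1416594_at differed by -0.18 ± 0.81 (95% confidence interval -2.13 to 1.77), which joined 0.23 within eI to -1.0 within eM. In the interaction fit the second minus the first was -1.23 ± 0.23 (SE, limma, adjusted p = 0.9092). The change of the genotype difference between eI and eM hearts thus did not pass.

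The other Sfrp1 probe sets did not follow these 3. Probe set 1448395_at read 7.84, 9.55 and 6.77 in mutants 1, 2 and 3, against 8.84, 7.56 and 8.60 in wild types, with high and low hearts in every group. Its eM minus eI difference was -0.76 ± 0.70 (limma, adjusted p = 0.522), and that of 1438620_x_at was -0.26 ± 0.21 (adjusted p = 0.471). Across the 6 hearts 1448395_at correlated with 1438620_x_at at 0.92 (Pearson), and 1416594_at with 1428136_at at 0.96. Between these pairs r was 0.27 to 0.55. Which transcript each probe set reads was not analysed here.

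**Figure D2:**
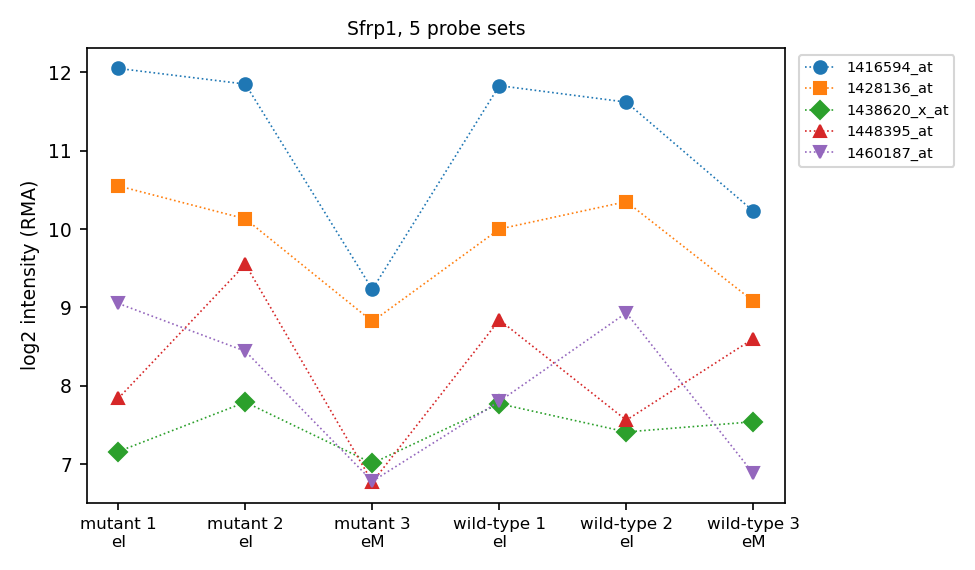
Log2 intensity of the 5 Sfrp1 probe sets in each heart, mutants left of wild types; dotted lines join values of 1 probe set and imply no order. Probe sets 1416594_at, 1428136_at and 1460187_at drop in both eM hearts, whereas 1448395_at reads 8.60 in wild-type 3 and 6.77 in mutant 3.

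Sfrp2, a related antagonist of mesenchyme, was lower in eM hearts and, among eI hearts, higher in mutants. Its probe set, 1448201_at, read 8.87, 8.27 and 6.18 in mutants 1, 2 and 3, against 6.91, 7.27 and 6.07 in wild types. Both eI mutants lay above every wild type, while mutant 3 lay beside wild-type 3 at the bottom. The mutant mean was 7.77 ± 1.42 and the wild-type mean 6.75 ± 0.61 (SD, n = 3 each), a difference of 1.02 ± 0.70 (SE), or 2.03-fold, that did not pass (limma, adjusted p = 0.9999). It was 1.48 within eI and 0.10 within eM, and with the letters as a block the interval was 0.26 to 1.78 (limma, adjusted p = 0.9981). The eM minus eI difference was -1.71 ± 0.33, or 3.26-fold lower (limma, adjusted p = 0.0278). It was -2.39 among mutants and -1.02 among wild types.

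Sfrp1 and Sfrp2 were lower in the hearts where 2 of 8 genes of fibroblasts, the collagen-making cells of connective tissue, were also lower, a direction in which 4.94% of all tested probe sets passed. The mean over the 8 fibroblast markers, all measured and none dim, was 8.87 in mutant 3 and 9.53 in wild-type 3, against 9.93 to 10.37 in eI hearts. Of the 8, Lum, a small proteoglycan of collagen fibrils, and Col1a2, a chain of type I collagen, passed the test and were lower in eM hearts, by -3.42 and -1.12 (limma, adjusted p = 0.00947 and 0.0213). The other 6 did not pass, with Col3a1 at -0.53 and Tcf21 at -0.04. Fibroblast markers were not alone in being lower. Erythroid markers (dim Hba-a1 included) averaged 9.85 in mutant 3 and 9.87 in wild-type 3, against 10.35 or more in eI hearts. Of the 5 tested, 2 passed as lower. Liver and yolk sac endoderm markers averaged 5.51 and 5.73, against 6.69 to 8.2. Of the 7 tested, 1 passed as lower, Afp (-5.83). Of 9 valve and cushion mesenchyme markers, 4 passed as higher and 0 as lower. The part of fibroblasts or of these other cells in the Sfrp levels was not tested.

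Sfrp5, an antagonist known from the embryonic venous pole and outflow region in the mouse, gave different answers by probe set. At 1436075_at it read 6.43, 6.34 and 7.72 in mutants 1, 2 and 3, against 6.45, 6.19 and 7.04 in wild types, and both eM hearts lay above all eI hearts. The difference was 1.03 ± 0.16 (SE), or 2.04-fold (limma, adjusted p = 0.0155), with 1.34 among mutants and 0.72 among wild types. At 1423023_at the hearts overlapped, at 6.68 to 6.86 in mutants and 6.47 to 7.07 in wild types, with an eM minus eI difference of -0.15 ± 0.17 (adjusted p = 0.593). The 2 probe sets did not vary together across hearts (Pearson r = -0.06, n = 6). By genotype they differed by 0.27 ± 0.41 and 0.05 ± 0.17 (limma, adjusted p = 0.9999 for both).

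Dkk3, a divergent member of the Dickkopf family whose place in Wnt signalling is less settled, varied little. Probe set 1448669_at read 9.94, 9.97 and 9.62 in mutants 1, 2 and 3, against 10.36, 10.01 and 9.90 in wild types. The mutant lay below the wild type within the eI hearts, by -0.23, and within the eM pair, by -0.27. The genotype difference was -0.25 ± 0.16 (SE; limma, adjusted p = 0.9999) at this probe set and -0.20 ± 0.14 at 1417312_at. The eM minus eI differences of -0.31 ± 0.12 and -0.25 ± 0.11 did not pass (limma, adjusted p = 0.148 and 0.208).

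Over the 10 genes, 19 of 21 probe sets, from 9 genes, were tested. Between mutant and wild-type hearts 0 of the 19 passed an adjusted p of 0.05 in limma, as did 0% of all tested probe sets. Of the 19, 0 had an unadjusted p under 0.05, against 1.17% of all. With the letters as a block Sfrp2 did, against 4.37% of all; Wnt2 is left out of that count, having been chosen by this difference. The genotypes were free of overlap at 0 of the 19 probe sets and at 4.67% of all. Within both letters the mutant was higher at 2, Wnt2 and Sfrp2, and lower at 1, Dkk3 1448669_at, where 8.21% and 7.56% of all tested probe sets were. The median genotype difference was 0.00 over the 19 and 0.01 over all tested probe sets.

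Between eM and eI hearts 4 of the 19 probe sets passed as higher and 4 as lower, with 6.75% and 4.94% of all tested probe sets called in these directions, and the 8 include Wnt2. Since the genes were listed with results of both comparisons known, these counts and those by genotype are a description, and nothing is read from them against the shares of all probe sets. The groups were free of overlap at 14 of the 19, 7 higher and 7 lower in eM hearts, and at 43.1% of all, 22.8% higher and 20.3% lower. The differences ran from -2.11 to 1.63 with a median of -0.25, against -0.01 over all tested probe sets. These calls rest on mutant 3: without it, wild-type 3 alone stood for eM, 0 of the 19 probe sets passed in limma, 8 of them with an unadjusted p under 0.05, and 1 of 27022 passed. That fit assumes that the lone eM heart varies like the others. Without mutant 3 the differences were 1.44 for Wnt2, -1.49 for Sfrp1 1416594_at, -1.02 for Sfrp2, 0.72 for Sfrp5 1436075_at and 1.06 for Wnt5a 1448818_at. Without mutant 2, 3 of the 19 passed, and Sfrp2, both Wnt5a probe sets, Sfrp5 1436075_at and Sfrp1 1460187_at did not. With the Xist level as a covariate, 5 of the 19 passed, and Sfrp2 (adjusted p = 0.0703), Sfrp1 1460187_at (0.0585) and Wnt5a 1437673_at (0.151) did not. Without a genotype term Sfrp2 did not pass (limma, adjusted p = 0.0676), and Wnt5a 1437673_at did not without the filter (0.0726), after quantile normalization (0.07) or with arrays centred on their medians (0.0587). In the interaction of genotype and letters, which rests on 1 heart per genotype in eM, 0 of the 19 and 0% of all tested probe sets passed (smallest adjusted p among the 19 = 0.9092). Of the 19, 4 had an unadjusted p under 0.05 there, against 5.32% of all.

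**Figure D3:**
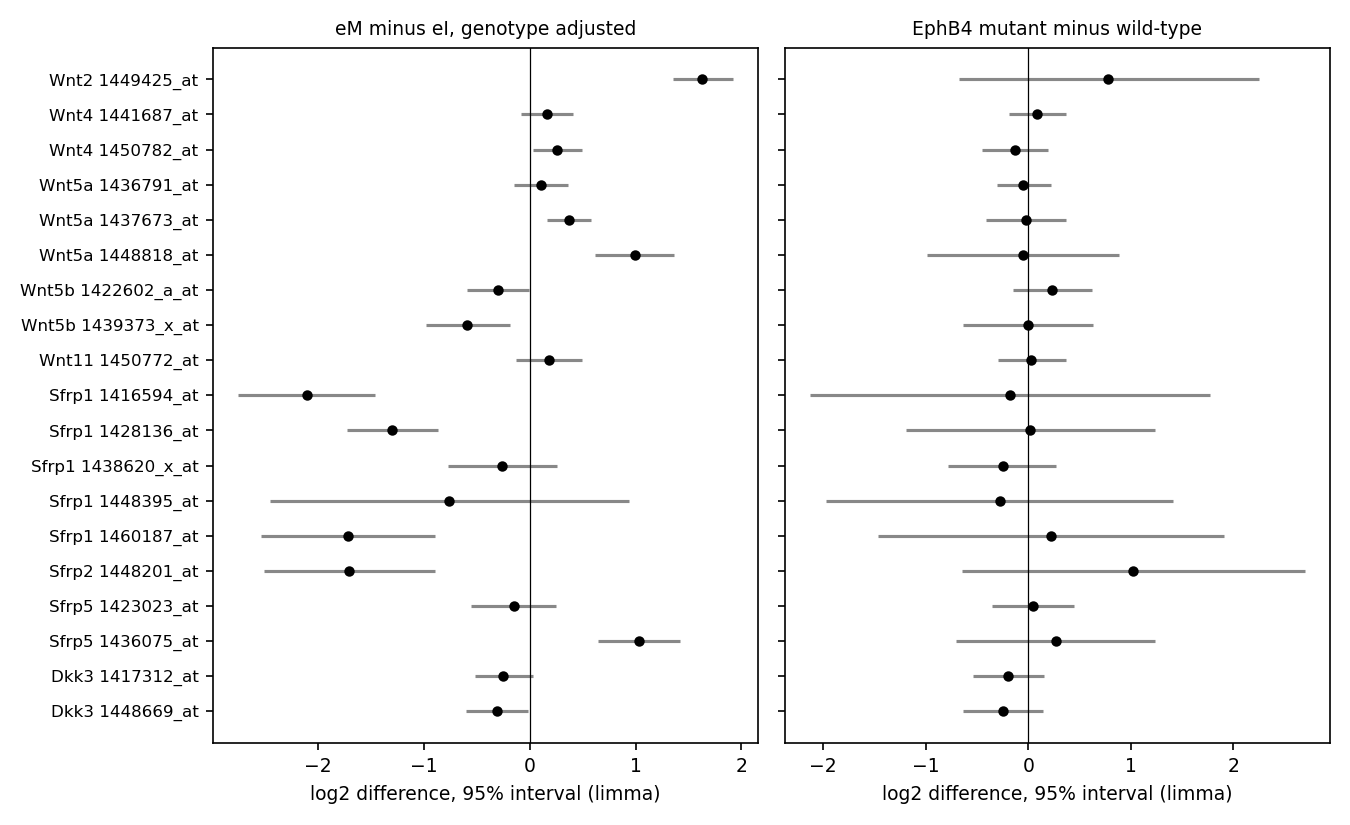
Log2 differences of the 19 tested probe sets with 95% intervals from limma, eM minus eI hearts with genotype adjusted (left) and EphB4 mutant minus wild-type (right). By letters the intervals of 3 Sfrp1 probe sets, Sfrp2, both Wnt5b probe sets and Dkk3 1448669_at lie below 0. Those of Sfrp5 1436075_at (0.64 to 1.42), Wnt5a 1448818_at, Wnt5a 1437673_at and Wnt4 1450782_at lie above it. The Wnt5b, Dkk3 and Wnt4 differences did not pass after adjustment. Every genotype interval spans 0. The intervals of Wnt2, chosen by these differences, are a description.

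The other genes of the pathway were taken from 10 lists that hold 90 genes measured on the array, 74 of them tested at their brightest probe set. Between mutant and wild-type hearts 0 of the 74 passed in limma, and 42 were higher in mutants. Fzd6, a Wnt receptor, had the smallest unadjusted p, at 8.55 ± 0.30 in mutants and 7.90 ± 0.04 in wild types (SD, n = 3 each), a difference of 0.66 ± 0.16 (SE; limma, adjusted p = 0.9999), made up of 0.81 within eI and 0.36 within eM. Rspo1, a secreted enhancer of Wnt signalling made by epicardium, differed by 0.42 ± 0.25, with 0.80 within eI and -0.35 within eM. Bcl9l, a beta-catenin cofactor, differed by -0.25 ± 0.11, and Ctnnbip1, an inhibitor of beta-catenin, by -0.20 ± 0.11. The differences of the other lists' leading genes were not called either: Sost (0.25 ± 0.21), Lrp6 (0.19 ± 0.19), Prickle2 (-0.18 ± 0.12), Wnt3a (-0.16 ± 0.11), Ccnd1 (-0.13 ± 0.11) and Porcn (0.09 ± 0.10). For the ligand carrier Wls the difference was 0.00 ± 0.13.

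Common targets of beta-catenin gave no called genotype difference: 0 of 9 tested passed, with a median of 0.07. Axin2, a feedback inhibitor, read 7.19, 7.07 and 7.84 in mutants 1, 2 and 3, against 7.10, 7.13 and 7.36 in wild types. Mutant 3 was highest and wild-type 3 next. Lef1, a transcription factor of the pathway and a target of it, read 8.43, 8.20 and 9.10 in mutants, against 8.25, 8.56 and 8.65 in wild types. Axin2 and Lef1 were highest in the eM hearts, by 0.48 ± 0.13 and 0.52 ± 0.16, and neither passed (limma, adjusted p = 0.0637 and 0.0974). Of the 9 targets, 0 passed as higher in eM hearts, where 6.75% of all tested probe sets did. As lower, 2 passed, Apcdd1 (-0.55, limma, adjusted p = 0.0225) and Notum (-0.56, adjusted p = 0.0364), where 4.94% of all did.

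By letters, 10 of the 74 pathway genes passed, 6 higher and 4 lower in eM hearts, where 11.7% of all tested probe sets passed, so the share lay near that of all. Without mutant 3 it was 0, without mutant 1 or mutant 2 it was 2, without wild-type 3 it was 4, and with Xist as a covariate 2, Celsr1 and Dkk1. Higher were Celsr1, a planar polarity cadherin (0.87 ± 0.10; limma, adjusted p = 0.00716), Dkk1, an inhibitor that binds Lrp6 (0.76 ± 0.11; adjusted p = 0.0113), the receptor Fzd3 (0.59 ± 0.09), the destruction complex scaffold Apc (0.57 ± 0.11), Daam2 and Bcl9. Lower were Ror1, a receptor for Wnt5a (-0.79 ± 0.13; limma, adjusted p = 0.0162), Notum, an enzyme that removes the lipid of Wnt ligands, the inhibitor Apcdd1, and the ligand Wnt9b. Of the 13 other Wnt ligands 6 were dim, and Wnt9b was the only one of the 7 tested that passed (-0.53; limma, adjusted p = 0.031).

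**Figure D4:**
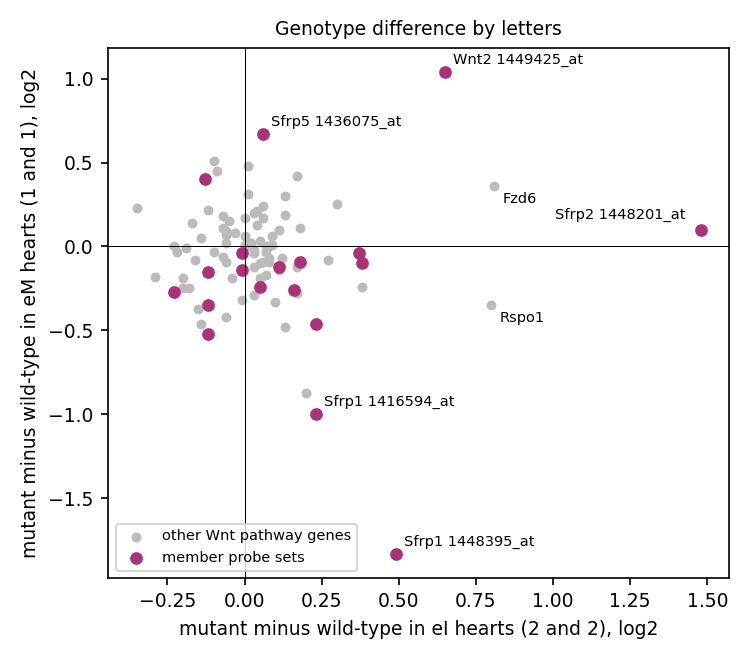
Mutant minus wild-type difference (log2) within the eI hearts, 2 against 2, on the horizontal axis and within the eM pair, 1 against 1, on the vertical axis, for the 19 tested probe sets of the 10 genes and 74 other pathway genes. Wnt2 lies at 0.65 and 1.04, Sfrp2 at 1.48 and 0.10, and Sfrp1 1416594_at at 0.23 and -1.0.

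Genes most like Wnt2 were ranked by Pearson's r of the log2 level over the 6 hearts among 978 genes that ranged over at least 1 log2 unit. Zfp429, a zinc finger gene, came first (r = 0.9945), followed by Pmp22, a membrane protein of myelin and other tissues (0.9886), Bcar3 (0.9853), Malt1 (0.9808) and Prdm6, a repressor of smooth muscle genes (0.9718). Pmp22 read 9.85, 9.84 and 10.69 in mutants 1, 2 and 3, against 9.63, 9.71 and 10.23 in wild types, with mutant 3 and wild-type 3 highest as for Wnt2 and a narrower range. With the mean of each letter group subtracted, the first 5 were Zfp429 (0.9902), Bcar3 (0.9523), Pmp22 (0.947), Calb2 (0.9365) and Malt1 (0.9303). Sfrp1 was most like Lum (0.9976), Itm2b (0.9976) and Cpt1a (0.9971), and Sfrp2 most like Mfap4, a protein of elastic fibres (0.9848), Clec14a (0.9744) and Slc15a2 (0.9735). All these values come from the same 6 arrays, whose main axis is the gap between eM and eI hearts.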

How the data were processed

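Total RNA of 6 hearts was labelled and hybridised to 1 Affymetrix array each, per the labels. The deposited values are log2 intensities that the authors made with RMA (version not given), per the submitters' processing notes; they ran from 2.42 to 14.79. Background correction could not be varied without scanner files, and the number of arrays limits precision. Of 45101 probe sets 64 controls were left out; 34945 named 1 gene by the platform annotation, 932 several and 9160 none. The 10 gene IDs matched RefSeq (GRCm38.p6).

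The lowest 40% of probe sets by mean were left out, and 27022 were fitted by lmFit and eBayes of limma 3.58.1 under R 4.3.3, with two-sided p adjusted by Benjamini-Hochberg over all tested: genotype without covariate, letters with genotype, and their interaction. The fits were tested on simulated data with independent noise and no array-wide gap between eM and eI hearts. Such data cannot show how the genotype fit without covariate behaves where that gap is present. Figures used matplotlib 3.10.9 in Python 3.11.15. Members and lists were chosen with earlier results of these data known. All members were named, and of each pathway list the gene of smallest genotype p, up to 3 genes called by letters, and Axin2, Lef1, Fzd6, Rspo1 and Wls. Groups and replicate numbers came from the titles, where each array is 1 mouse per the design text. Same-numbered hearts deviated together from their group means (r = 0.18, 0.36 and 0.74 for numbers 1, 2 and 3), so the numbers count as paired by the rule used here. Number 3 is also the eM pair, and differently numbered eI hearts correlated more (0.49 for mutant 2 with wild-type 1, 0.47 for mutant 1 with wild-type 2). Alternatives covered filter, normalization, blocks, Xist, weights and leaving out each heart.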

Additional observations from a re-analysis of the deposited data

Results flagged for a closer look

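Values of the 4 eI hearts were screened for a single distant heart in 21 probe sets. Dkk3 at 1448669_at was the only one past Dixon's limit: wild-type 1 read 10.36, against 9.94 to 10.01 in the other eI hearts, a gap of 0.831 of the range. Chance marks about 1 group in 20.

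At 4 probe sets both eI mutants lay above both eI wild types while the eM mutant lay below the eM wild type. Mutant minus wild type in eM, then in eI, was -1.0 and 0.23 for Sfrp1 1416594_at, -0.46 and 0.23 for Wnt5b 1439373_x_at, -0.04 and 0.37 for Wnt5b 1422602_a_at, and -0.09 and 0.18 for Wnt4 1441687_at. The interaction term did not pass for any of the 4 (limma, adjusted p = 0.9092, 0.9092, 0.9107 and 0.9226), and each eM value is 1 heart against 1.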

How the results depend on the processing

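With the replicate block, as with the letters as a block, as a random block, or the 4 eI hearts alone, 0 member probe sets and 0 pathway genes passed between genotypes, and the replicate block, run for this comparison alone, changed no call in it. Leaving out 1 heart gave 0 to 2 calls by genotype over all probe sets, and by letters 1 to 4333 over all probe sets, 0 to 8 among members and 0 to 14 among pathway genes. By letters, the Xist covariate gave 1114 calls over all, 5 among members and 2 among pathway genes, and 1 probe set per gene, with fewer features tested, gave 1397 and 3. Some members and named pathway genes, none of which passed by genotype, turned in sign. The genotype sign turned under array weights (0.67 for Sfrp1 1416594_at, 0.14 for Sfrp1 1448395_at, 0.26 for Wnt5b 1439373_x_at, -0.01 for Wnt11, -0.06 for Sfrp5 1436075_at, -0.02 for Axin2, -0.13 for Lef1). It turned with Xist (0.49, 1.3 and 0.23 for Sfrp1 1416594_at, 1448395_at and 1438620_x_at, 0.35 for Wnt5b 1439373_x_at, 0.02 for Wnt5a 1436791_at, -0.01 for Wnt11, -0.15 for Sfrp5 1436075_at, -0.11 for Axin2, -0.27 for Lef1, 0.00 for Wls). It turned in eI hearts alone (0.23, 0.49, 0.23 and 0.05 for Sfrp1 1416594_at, Sfrp1 1448395_at, Wnt5b 1439373_x_at and Wnt5a 1436791_at, -0.13 for Sfrp5 1423023_at, -0.09 for Lef1, 0.05 for Wls). After quantile normalization the interaction was 0.02 for Wnt4 1450782_at and 0.01 for Wnt5a 1437673_at. The cause was not tested. Without 1 heart, genotype differences ran from -0.69 to 0.73, -0.34 to 0.53, -1.03 to 0.36 and -0.27 to 0.87 (Sfrp1 1416594_at, 1428136_at, 1448395_at, 1460187_at), -0.12 to 0.04, -0.14 to 0.11 and -0.36 to 0.30 (Wnt5a 1436791_at, 1437673_at, 1448818_at), -0.19 to 0.31 (Wnt5b 1439373_x_at), -0.10 to 0.13 (Wnt11), -0.09 to 0.21 and -0.18 to 0.51 (Sfrp5 1423023_at, 1436075_at), -0.07 to 0.32 (Axin2), -0.17 to 0.28 (Lef1) and -0.13 to 0.09 (Wls). By letters they ran from -1.92 to 0.40 (Sfrp1 1448395_at), -0.41 to 0.11 (Sfrp5 1423023_at), -0.03 to 0.25 (Wnt5a 1436791_at) and -0.87 to 0.28 (Rspo1). For Wnt2 they kept their sign, at 0.17 to 1.26 by genotype and 1.44 to 1.83 by letters. Of the differences by letters of single members, 7 of 159 under alternatives that kept all hearts no longer passed and 2 newly passed, all in the same direction. These 159 come from all 19 tested probe sets, of which only 8 passed in the main fit and could lose their call.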

Other observations

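The epicardium and mesothelium list, with 12 of 12 genes measured, averaged 8.64, 8.65 and 8.54 in mutants 1, 2 and 3, against 8.26, 8.14 and 8.61 in wild types. By letters, 3 of the 12 passed as higher in eM hearts, where 6.75% of all tested probe sets did: Wt1 by 0.94, Lrrn4 by 1.15 and Tbx18 by 0.69 (limma, adjusted p = 0.00976, 0.0161 and 0.0317). Msln passed as lower (-0.67; adjusted p = 0.0196), and Rspo1 did not pass (-0.30; adjusted p = 0.469). Isl1, a factor of second heart field cells, read 5.19 to 5.67 in mutants, against 4.96, 5.48 and 7.61 in wild types 1, 2 and 3, so 1 eM heart, wild-type 3, stood out and the other did not. Aldh1a2, the retinoic acid synthase of epicardium, read 8.28, 8.13 and 6.76 in mutants, against 7.77, 7.69 and 7.54 in wild types. Rspo1, Isl1 and Aldh1a2 were chosen after their values were seen.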
